A study of Mus musculus with 24 samples.

Results

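RNA of the thoracic aorta was compared between 6 Klotho-/- mice (KO) and 6 wild-type mice (WT) that all received a diet with 0.05% magnesium by weight, labelled minimal. These 12 mice were chosen by their genotype and diet labels from 24 mice in 4 groups, and the other 12 (6 KO and 6 WT) had a diet with 0.48% magnesium, labelled high. All mice were of strain C57/BL6, fed these diets from birth and examined at 8 weeks, and the WT mice on minimal magnesium were the control group of the study. The labels give the allele only as Klotho-/- and do not tie the tissue to a vessel layer, so all cells of the cleaned aorta contribute RNA.

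Klotho is a membrane protein, made mainly in the kidney, that lets receptors for fibroblast growth factors respond to FGF23, a hormone from bone that makes the kidney excrete phosphate. Mice without Klotho retain phosphate and are known for calcified arteries, in which smooth muscle cells of the vessel wall take on features of bone-forming cells. Magnesium is known to slow the growth of calcium phosphate crystals. The comparison asks what the loss of Klotho changes in aortic RNA when the diet holds little magnesium.

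The deposited tables list 102919 transcripts of 41012 genes under identifiers that the Mouse Genomes Project gave to C57BL/6NJ. No symbols stand beside them in the files, and 0 of the 41012 were found in the tables of gene names at hand, so no gene is named by symbol and Klotho itself, bone genes and cell type markers were not analysed here. Genes are described by identifier, level, length and transcript make-up. For the same reason the tissue label was not checked against marker genes, and in whole tissue a smaller number of cells of a type and less RNA per cell cannot be told apart.

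Library totals ran from 10021514 to 17833156 estimated read counts in the 12 mice. The lowest totals, 10021514 to 11488403, were those of WT mice 1, 4 and 10 and KO mouse 18. All other mice had 13709612 or more. KO mice had 23265 ± 611 genes with a count and WT mice 22146 ± 913 (SD, n = 6). The exact two-sided permutation p was 0.0368, with a Benjamini-Hochberg adjusted p of 0.11 over 3 library measures. Mice 1 and 10 had the fewest genes with a count (21149 and 21254), whereas mouse 4 had 23175. The part of depth in the difference between genotypes was not tested. The 100 highest genes held 21.3 ± 1.29% of counts in KO and 24.2 ± 3.34% in WT mice (exact permutation p = 0.0823, adjusted p = 0.123), and totals differed by less than their spread (exact permutation p = 0.268). By root mean square log2 difference over 16741 genes, 3 libraries were closer to the other genotype than to their own. Mouse 4, labelled WT, had a mean distance of 1.22 to the other WT and 0.883 to the KO mice, and was closest to KO mouse 36. Mouse 20, labelled KO, had 1.03 to the other KO and 0.936 to the WT mice, and was closest to WT mouse 38. Mouse 38 had 1.27 to the other WT and 1.09 to the KO mice, and was closest to mouse 20 itself. Labels were kept as deposited and the main results are given with and without mice 4 and 20, and the number of calls also without mouse 38 (127 genes). Leaving out mice 4 and 20 selects on the profile itself and so by its construction favours a larger genotype difference.

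With all 12 mice, 117 genes were higher (0.699% of the 16741 tested) and 21 lower (0.125%) in KO than in WT mice, 0.824% in all (edgeR quasi-likelihood test, Benjamini-Hochberg adjusted p under 0.05). The higher genes rose by a median of 1.21 on the log2 scale, 82 of them more than 2-fold and 19 more than 4-fold. The lower genes fell by a median of 1.06, with 12 more than 2-fold and 2 more than 4-fold. Over all genes tested the median log2 fold change was -0.02. Without mice 4 and 20, 2291 genes were higher (13.6%) and 1770 lower (10.5%), 24.1% of 16829 tested, with medians of 1.18 and -0.80. The number of calls also depended on the fit: edgeR fitted to the 12 libraries by themselves called 0 genes (3178 at an unadjusted p under 0.05), and without mouse 1, 10, 36 or 40 the model of all libraries called 5.

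The clearest rise was at MGP_C57BL6NJ_G0022218, the gene with the smallest p of all. WT mice 1, 4, 10, 23, 38 and 39 had 2.36, 2.59, 1.56, 1.90, 2.02 and 1.38 CPM (counts scaled to library size). KO mice 18, 35, 36, 37 and 40 had 18.9, 16.0, 27.9, 19.9 and 23.4 CPM, and KO mouse 20 had 2.06 CPM. Apart from mouse 20, every KO mouse lay above every WT mouse. Mouse 4, at 2.59 CPM, was the highest of the WT mice but stayed far below the KO mice other than mouse 20. The log2 fold change was 3.19 ± 0.40 (SE, edgeR adjusted p = 0.00108), or 9.13-fold, and 3.56 ± 0.28 without mice 4 and 20. In the model of the 12 libraries alone its adjusted p was 0.0848.

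This gene was high in 1 of the 4 groups. On high magnesium, WT mice had 3.16 ± 0.725 CPM and KO mice 2.29 ± 0.97 CPM (SD, n = 6), with a log2 fold change of -0.46 ± 0.38 (edgeR adjusted p = 0.367). The difference between the knockout effects on the 2 diets was 3.65 ± 0.55 on the log2 scale (edgeR adjusted p = 0.000308). The minimal diet effect chose the gene, which favours a positive value here. Of its 3 transcripts, the longest (1164 bases) went from 0.965 ± 0.338 to 13.0 ± 6.25 TPM and held 48.9 ± 30.0% of the TPM of the gene in WT and 63.3 ± 8.51% in KO mice. The shortest (419 bases) held 40.6 ± 21.0% and 36.2 ± 8.65%. Shares in WT mice rest on few reads, and transcript usage of this gene did not pass a test (limma on TPM shares, adjusted p = 1).

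MGP_C57BL6NJ_G0031269 rose with it. The 6 WT mice in the same order had 4.94, 13.1, 2.91, 4.69, 6.65 and 4.62 CPM. KO mice 18, 20, 35, 36, 37 and 40 had 20.2, 8.63, 34.7, 46.9, 34.2 and 51.2 CPM. Mouse 4 was the highest WT mouse and mouse 20 the lowest KO mouse, below mouse 4, and 5 of 6 KO mice lay above all WT mice. The log2 fold change was 2.40 ± 0.37 (SE, edgeR adjusted p = 0.00673), and 3 ± 0.27 without mice 4 and 20. On high magnesium the groups had 6.28 ± 1.36 CPM (WT) and 6.09 ± 1.91 CPM (KO), and the log2 fold change was -0.04 ± 0.35 (edgeR adjusted p = 0.945). In the 12 libraries alone the adjusted p was 0.0883.

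Its 2 transcripts differ widely in length, 10101 and 527 bases. Both had higher mean TPM in KO mice, from 0.393 ± 0.263 to 2.25 ± 1.14 TPM for the long and from 1.27 ± 1.07 to 7.95 ± 4.10 TPM for the short transcript. Since TPM divides reads by length, the short transcript held 77.7 ± 2.49% of the TPM in KO mice although the long one drew most reads (857 against 88 in mouse 40). In WT mice the short transcript held 63.7 ± 32.2%, and the shares did not pass a test (limma adjusted p = 0.669).

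Among genes that fell, MGP_C57BL6NJ_G0023562 had the smallest p of those averaging 1 CPM or more in either genotype. WT mice had 0.967, 1.04, 1.56, 1.39, 1.13 and 1.52 CPM, in the order of mice 1, 4, 10, 23, 38 and 39. KO mice 18, 20, 35, 36, 37 and 40 had 0.402, 0.629, 0.199, 0.464, 0.126 and 0.217 CPM. The groups did not overlap, with mice 4 and 20 on the side of their labels, although each was the mouse of its group nearest or second nearest to the other group. The level is low: these values are 9 to 22 reads in WT and 2 to 11 reads in KO mice. The log2 fold change was -1.87 ± 0.39 (SE, edgeR adjusted p = 0.0369), a fall of 3.67-fold, and -2.17 ± 0.42 without mice 4 and 20 (adjusted p = 0.0012). The gene has 1 transcript of 1809 bases. It was also lower in KO mice on high magnesium, at 0.467 ± 0.288 against 1.12 ± 0.363 CPM. Those mice entered its choice only through the shared filter, scaling of libraries and estimate of the spread. The log2 fold change there was -1.24 ± 0.38 (edgeR adjusted p = 0.0161). The effects on the 2 diets differed by -0.64 ± 0.54 (adjusted p = 0.451). The call on minimal magnesium was lost in 8 of 12 fits that left out 1 mouse (mice 1, 10, 23, 35, 36, 37, 39 and 40). The highest edgeR adjusted p of these fits was 0.124. The call was also lost in the 12 libraries alone (edgeR adjusted p = 0.0869) and without a filter on low counts (0.052). With a term for mouse numbers 1 to 18 against 20 to 40 it was lost too (0.053).

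MGP_C57BL6NJ_G0029527 was the most abundant of the 4 genes. WT mice 1, 10, 23, 38 and 39 had 188.6, 143.5, 126.4, 129.9 and 175.1 CPM and WT mouse 4 had 60.7 CPM. KO mice 18, 20, 35, 36, 37 and 40 had 80.2, 95.5, 69.1, 55.5, 46.3 and 48.4 CPM. Mouse 4 lay inside the KO range, and all other WT mice lay above all KO mice, of which mouse 20 was the highest. The log2 fold change was -1.06 ± 0.22 (SE, edgeR adjusted p = 0.0369), a fall of 2.09-fold, and -1.32 ± 0.18 without mice 4 and 20. On high magnesium every KO mouse (61.4 to 103 CPM) lay below every WT mouse (109 to 179 CPM), with a log2 fold change of -0.87 ± 0.22 (adjusted p = 0.00447). The difference between diets was -0.19 ± 0.31 (adjusted p = 0.722). Its call on minimal magnesium was lost without mouse 1, 10, 23, 35, 36, 37, 39 or 40, with a highest adjusted p of 0.124, and in the 12 libraries alone (0.137).

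The 3 main transcripts of this gene all had lower mean TPM in KO mice. The transcript of 1339 bases went from 55.5 ± 22.4 to 31.9 ± 9.04 TPM and that of 1780 bases from 11.7 ± 0.951 to 6.11 ± 1.27 TPM. The transcript of 686 bases went from 19.5 ± 6.85 to 6.66 ± 4.97 TPM, and its share from 21.5 ± 2.45% to 12.9 ± 5.52% of the TPM of the gene. That shift in usage did not pass after adjustment (limma adjusted p = 0.428, or 0.0648 without mice 4 and 20).

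**Figure D1:**
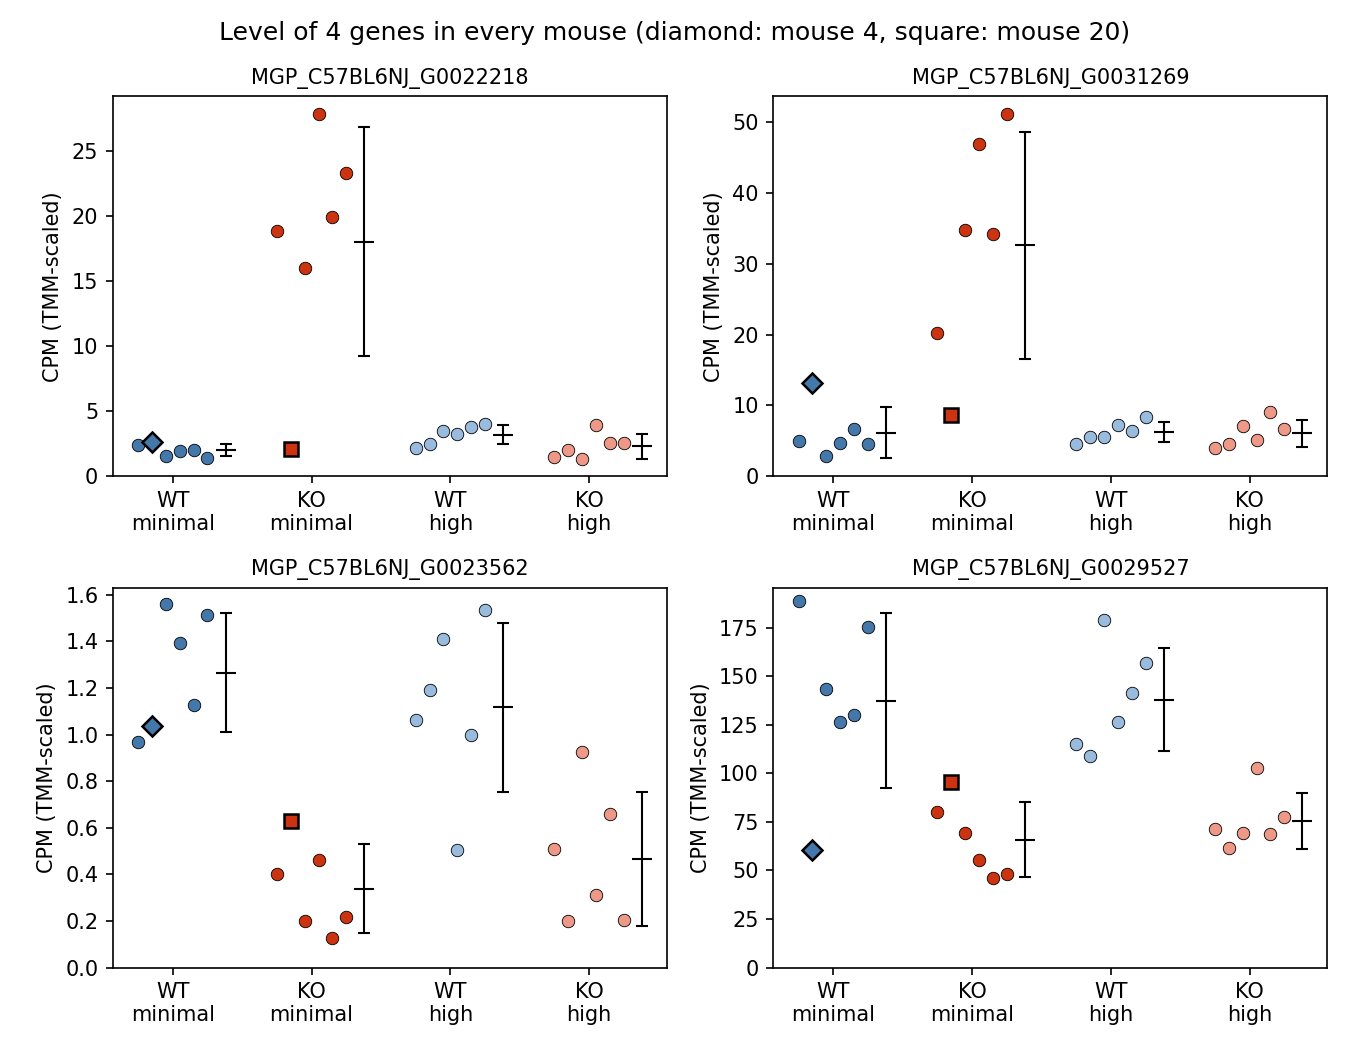
CPM of the 4 genes (linear axis from 0) in each mouse of the 4 groups, with the mean and SD of each group beside the points, mouse 4 as a diamond and mouse 20 as a square. The upper pair is high in 5 of 6 KO mice on minimal magnesium and low elsewhere, and the lower pair is lower in KO than in WT mice on both diets.

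The genes called on minimal magnesium were then read in the 12 mice on high magnesium. Their CPM did not directly enter the fold changes on minimal magnesium. The filter, the scaling of libraries and the estimate of the spread were shared in 1 model, so the calls were not made without these mice. Of the 117 genes higher in KO mice on minimal magnesium, 16 were also higher on high magnesium (13.7%, against 16.3% of all genes tested) and 39 were lower there (33.3%, against 16.8% of all genes tested). Their median log2 fold change was 1.21 on minimal and -0.23 on high magnesium, where the median of all genes was 0.04. Of the 21 lower genes, 11 were also lower on high magnesium (52.4%, against 16.8%) and 0 were higher, and their median was -0.45 there. So the share of falling genes called in the same direction was above the background and that of rising genes was not; neither difference was tested.

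The difference between the knockout effects on the 2 diets passed the edgeR test, with the effect on minimal magnesium the higher, at 74 of the 117 higher genes (63.2%, against 6.24% of all genes tested). It passed with the effect on minimal magnesium the lower at 3 of the 21 lower genes (14.3%, against 4.69%). These shares are a description, since the effect on minimal magnesium chose the genes and is part of the difference tested. The reading changed without mice 4 and 20. Then 953 of 2291 higher genes were also higher on high magnesium (41.6%, against 18.1%) and 190 were lower (8.29%, against 18.4%), while 864 of 1770 lower genes were also lower (48.8%, against 18.4%) and 20 were higher. These 2 mice were left out because of their profiles, which ties this reading to the measured outcome.

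**Figure D2:**
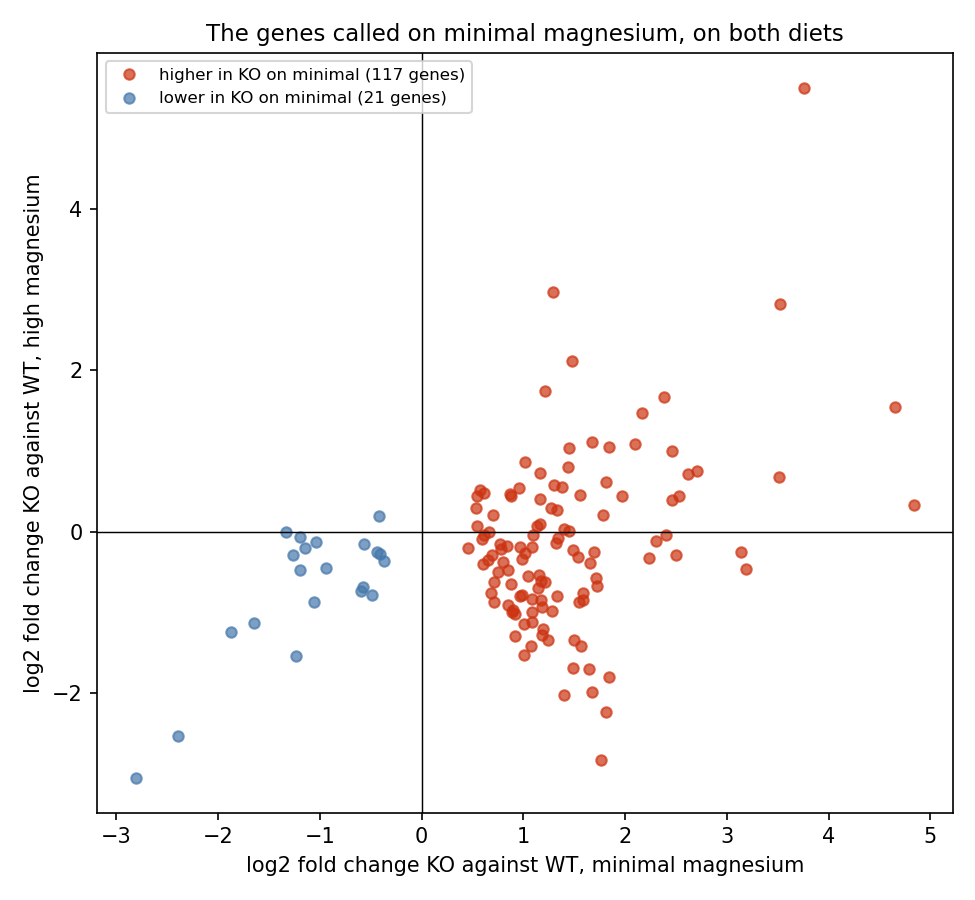
Knockout effect (log2 fold change, KO over WT) on minimal (horizontal) and on high magnesium (vertical) for the 138 genes called on minimal magnesium with all mice, 117 higher (red) and 21 lower (blue). The red points spread to both sides of 0 on high magnesium, with a median of -0.23, and the blue points lie mostly below 0, with a median of -0.45.

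The share of genes called differed by level. With all mice, calls for higher genes made up 0.718% of genes at a mean of 1 to 10 CPM, 0.688% at 10 to 100 CPM and 1.16% over 100 CPM, and 0 of 1377 genes under 1 CPM. Without mice 4 and 20 the directions divided by level: 17.9% of genes at 1 to 10 CPM were higher and 5.98% lower, whereas over 100 CPM 9.39% were higher and 17.1% lower. The median log2 fold change then went from 0.33 under 1 CPM to -0.14 over 100 CPM. The lower genes had a median longest transcript of 1826 bases with all mice and 2579.5 bases without the 2 mice, the higher genes 3010 and 3009 bases, and all genes tested 2947 and 2936 bases. The number of genes with a count and the share of the 100 highest genes moved in the same directions. Without mice 4 and 20 their differences, KO minus WT, were 1412 genes and -3.98 percentage points. The exact permutation p was 0.0159 and 0.0397 (adjusted p = 0.0477 and 0.0596). Of the mice left, WT mice 1 and 10 and KO mouse 18 had the lowest library totals. The part of depth in these differences, and of both measures in the results by level, was not tested.

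Transcript usage, the share of each transcript in the TPM of its gene, was read in 9101 genes with at least 2 transcripts that passed a filter on low counts. A test of TPM shares (limma on the arcsine square root of shares, Simes p per gene, adjusted over genes) called 1 gene, 0.011% of those tested, with 811 at an unadjusted p under 0.05. Without mice 4 and 20 it called 75 of 9200, where the transcript with the smallest p gained share in KO mice at 37 and lost share at 38, by a median of 11.6 percentage points. The count test planned for usage (edgeR diffSpliceDGE) called 112 genes, 1.23%, and 191 without mice 4 and 20, 2.08%. Most usage calls of this test on simulated counts were false, so its calls are given as a description. Its count was 3 among transcripts with at least 5% of the TPM of the gene and 6 in the 12 libraries alone. The 5% minimum removed most of the transcripts behind the edgeR calls before testing, and the 12 libraries were filtered anew. A call on a removed transcript could not be made again, so these lower numbers do not show that such calls failed a test. In 111 of those 112 genes the transcript with the smallest p was estimated at 0 reads in at least 1 of the 12 mice. These counts were not made over all genes tested, so no background stands beside them.

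The 4 transcripts with the smallest p by either test in either direction show how such estimates look, and were chosen after the shares were seen. Each passed the filter on low counts only through mice of the genotype in which it was higher. Their p-values, that of the gene called by limma included, are thus given as a description. The gene called by limma, MGP_C57BL6NJ_G0029991, has 6 transcripts, of which MGP_C57BL6NJ_T0072225 (2883 bases) had 10, 13, 16, 20, 6 and 9 estimated reads in WT mice 1, 4, 10, 23, 38 and 39 and 0 in all 6 KO mice. Its share was 3.08 ± 1.52% in WT mice (SD, n = 6; limma adjusted p = 0.0257, and 0.0135 without mice 4 and 20). Mouse 4 had reads like the other WT mice and mouse 20 had none like the other KO mice, so both followed their labels here. On high magnesium, all 6 WT mice had 6 to 17 reads, and 2 of 6 KO mice had reads, 7 in mouse 11 and 9 in mouse 31. A value of 0 allows up to 3 reads by counting error alone, and it can also come from the way reads were divided between transcripts.

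MGP_C57BL6NJ_T0047629 (3995 bases), 1 of 11 transcripts of MGP_C57BL6NJ_G0023998, showed the same pattern with more reads. WT mice 1, 4, 10, 23, 38 and 39 had 76, 72, 66, 182, 10 and 129 estimated reads. All 6 KO mice on minimal magnesium, mouse 20 included, had 0 after rounding, with estimates of exactly 0 in mice 18, 35 and 40 and of a fraction of a read in mice 20, 36 and 37. The gene as a whole had 567 to 1152 reads in these WT and 827 to 1306 reads in these KO mice, and these totals overlap. On high magnesium WT mice had 28 to 360 reads, 5 of 6 KO mice had 0 and mouse 16 had 7. The share of the transcript was 4.61 ± 2.87% in WT mice on minimal and 7.27 ± 3.42% on high magnesium. Its gene did not pass the limma test with all mice (adjusted p = 0.115, and 0.03 without mice 4 and 20). With edgeR the adjusted p of the gene was 6.01e-15 in the model of all libraries. That value is a description, since most usage calls of this test on simulated counts were false. The model of the 12 libraries filtered low counts anew. With 0 reads in the KO mice and 10 in mouse 38, a library of 16206976 counts, this transcript fell below the filter there. The gene was still tested through its other transcripts and did not pass. That model thus does not speak to this transcript.

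Of the transcripts that gained share, MGP_C57BL6NJ_T0065963 (785 bases, gene MGP_C57BL6NJ_G0028655) had 0 reads in all 6 WT mice. It had 14, 5, 12, 12, 11 and 4 reads in KO mice 18, 20, 35, 36, 37 and 40, a share of 2.51 ± 1.31% (limma adjusted p = 0.115, and 0.0325 without mice 4 and 20). On high magnesium all 6 KO mice had 4 to 28 reads, against 7 and 4 in WT mice 25 and 30 and 0 in the other 4 WT mice. MGP_C57BL6NJ_T0065096 (2884 bases, gene MGP_C57BL6NJ_G0028455) was uneven among KO mice, with 300 reads in mouse 35, 651 in mouse 40, 1 in mouse 37 and 0 in mice 18, 20 and 36. It had 0 reads in all 12 WT mice and 85 to 1058 in all 6 KO mice on high magnesium. On minimal magnesium its share did not pass the limma test (adjusted p = 0.673).

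**Figure D3:**
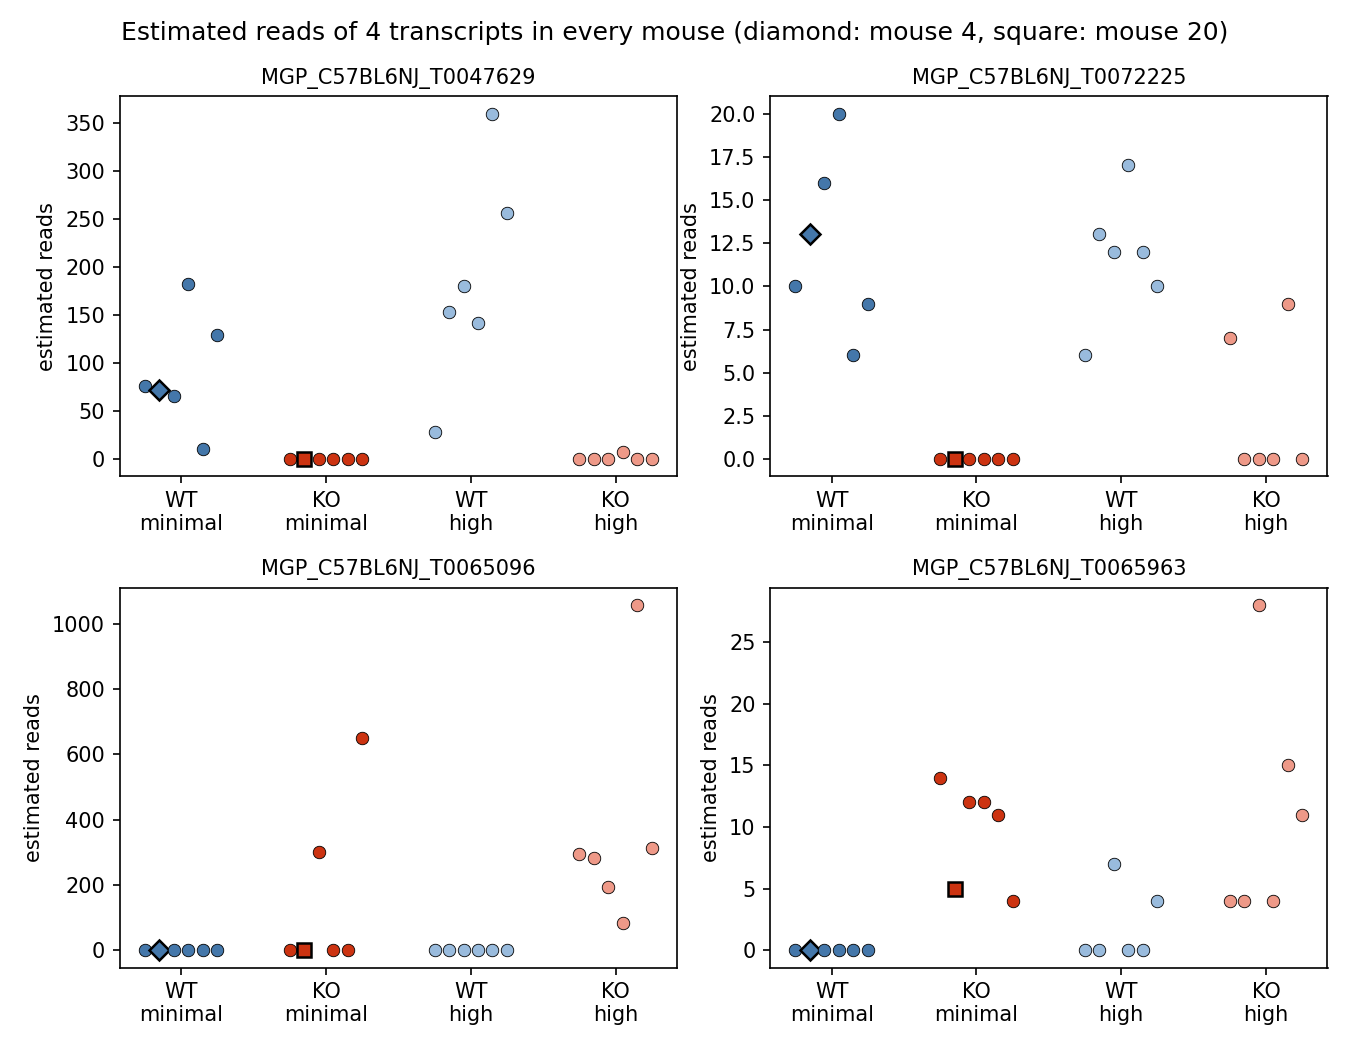
Estimated reads (linear axis) of the 4 transcripts in each mouse of the 4 groups, mouse 4 as a diamond and mouse 20 as a square. The upper pair has reads in all 12 WT mice and 0 reads in the 6 KO mice on minimal magnesium, and the lower pair has 0 reads in the 6 WT mice on minimal magnesium. Mouse 20 lies at 5 reads in the lower right panel and at 0 in the others.

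Over all transcripts with a share in each mouse, the 6 KO and 6 WT mice did not overlap at 144 of 37682 (0.382%), 82 with a higher and 62 with a lower share in KO mice. At the level of genes, CPM of the labelled groups did not overlap at 99 of 16741 genes (0.591%), 78 higher and 21 lower in KO mice. Without mice 4 and 20 it did not overlap at 2857 genes (17.1%), with 5 against 5 mice.

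How far each mouse lay towards the other genotype was measured on genes chosen without it. For each mouse in turn, the genotypes on minimal magnesium were compared by edgeR without that mouse and without mice 4 and 20, and its log2 CPM at the called genes was placed on a scale where 0 is the mean of the other WT and 1 the mean of the other KO mice. Mouse 4, labelled WT, had a median position of 0.94 on 2276 higher genes and 1.11 on 1767 lower genes. Mouse 20, labelled KO, had 0.00 and 0.19. The other KO mice had 0.62 to 1.23 on higher and 0.57 to 1.25 on lower genes, with mouse 18 lowest on both. The other WT mice had -0.05 to 0.23 on higher and 0.03 to 0.45 on lower genes, with mouse 38 highest on both. Both mice thus lay with the opposite genotype at most of these called genes, against their labels. At MGP_C57BL6NJ_G0023562 and the transcripts MGP_C57BL6NJ_T0072225, MGP_C57BL6NJ_T0047629 and MGP_C57BL6NJ_T0065963 both mice lay with their labels. Those features were chosen with the 2 mice counted as labelled, which favours their following the labels.

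**Figure D4:**
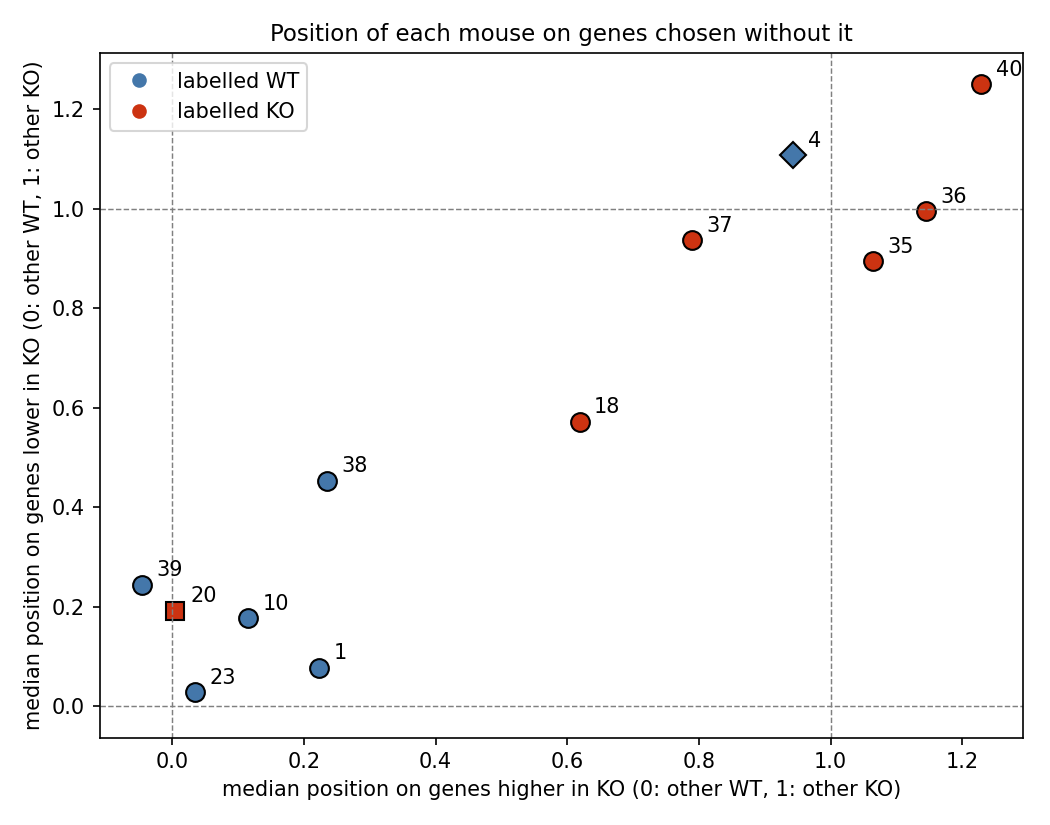
Median position of each of the 12 mice, numbered, on genes higher (horizontal) and lower (vertical) in KO mice, chosen without that mouse, where 0 is the mean of the other WT and 1 that of the other KO mice. The diamond of mouse 4 (0.94 and 1.11) lies among the KO mice and the square of mouse 20 (0.00 and 0.19) among the WT mice.

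At most of the called genes, mouse 20 or mouse 4 was the mouse of its group nearest to the other genotype. Mouse 20 was the KO mouse nearest to the WT mice at 107 of the 117 higher and 15 of the 21 lower genes, and mouse 4 was the WT mouse nearest to the KO mice at 78 and 15. The median over all genes tested of the SD of log2 CPM was 0.42 in the 6 WT and 0.30 in the 6 KO mice, and 0.36 and 0.25 without these mice. WT mice thus had the larger median SD with and without them; the difference was not tested. Pairs of WT mice differed by a root mean square of 1.04 log2 units on average and pairs of KO mice by 0.88 (15 pairs each).

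**Figure D5:**
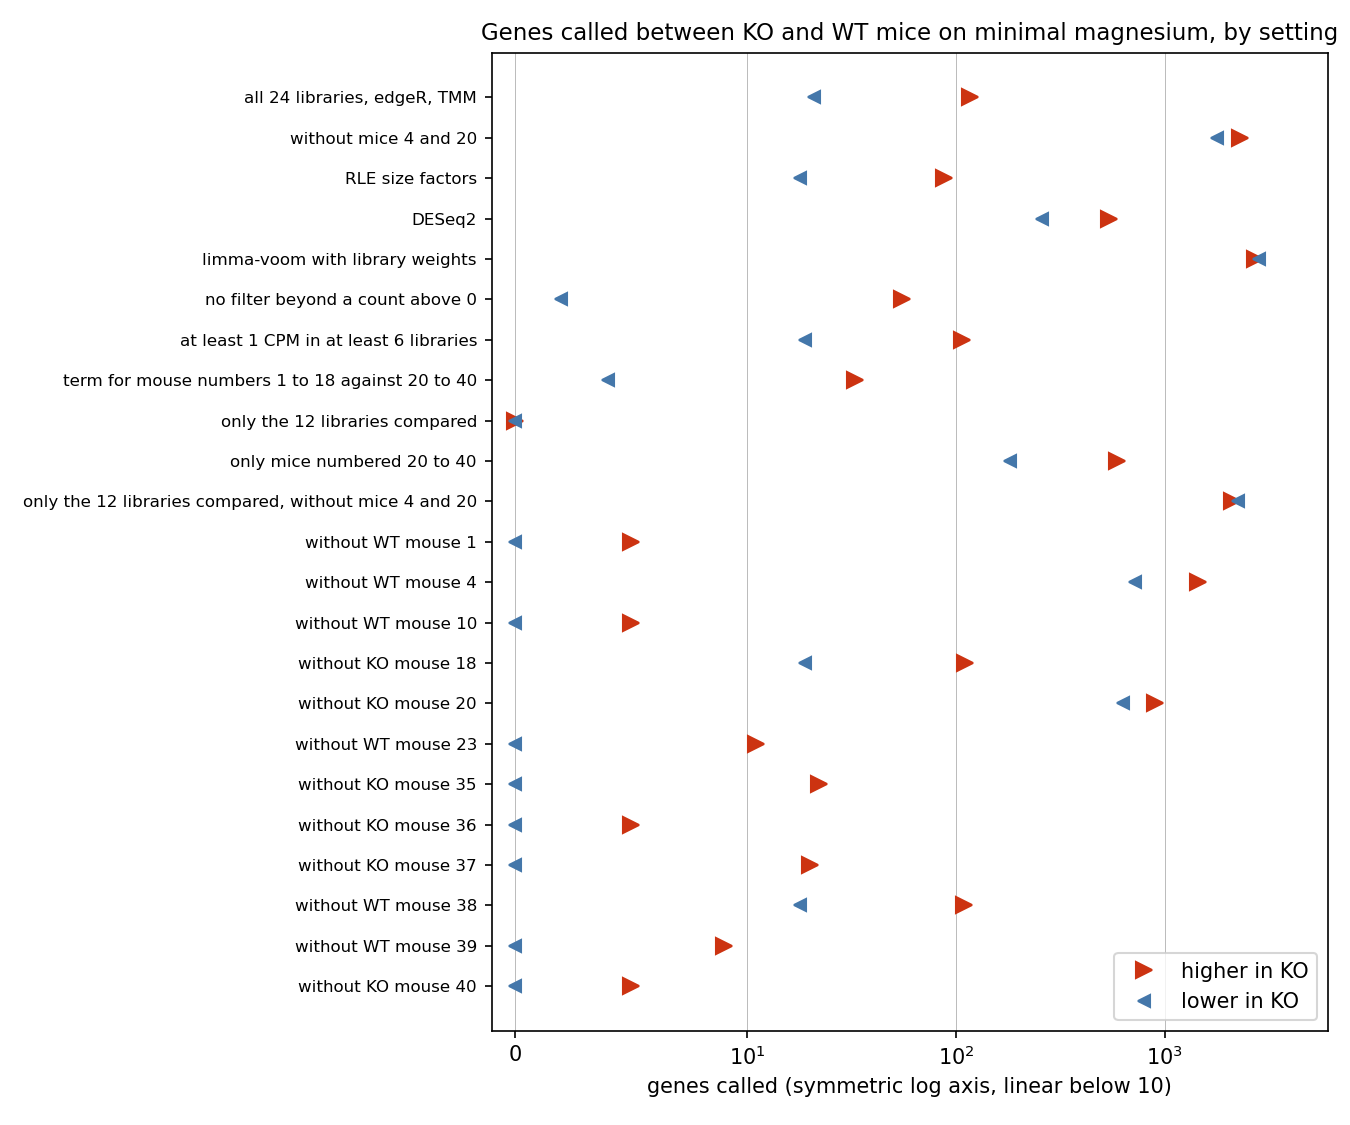
Genes called higher (red) and lower (blue) in KO than in WT mice on minimal magnesium under each setting, on a symmetric log axis. The counts run from 0 in a model of the 12 libraries to 5531 in all with limma-voom, and leaving out mouse 4 or mouse 20 raises them whereas leaving out most other mice lowers them.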

How the data were processed

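RNA from 24 thoracic aortas was sequenced, 6 mice per genotype and diet. The submitters' processing notes name FastQC, Salmon and mm10; their versions are not given in the sources used here. Per the labels' protocols, RNA was extracted without a DNase step. The deposited tables hold estimated counts and TPM values per transcript, made by the authors. Such estimates divide reads between similar transcripts and genes by a model, so genes with close copies and minor transcripts are uncertain.

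Estimated counts were summed per gene and rounded. In edgeR 4.0.16 (R 4.3.3), filterByExpr and TMM scaling were followed by a robust quasi-likelihood fit of 4 group means over all 24 libraries. SE is the log2 fold change divided by the root of F. Transcript usage was tested with edgeR and, on TPM shares, limma 3.58.1. Both were tried on simulated counts drawn independently per transcript, where limma was given shares of counts and not of TPM. That setting lacks the division of reads between transcripts. Most usage calls of edgeR were false there, so its calls are given as a description. Some of the transcripts shown were nevertheless picked by its p. DESeq2 1.42.0 was an alternative. Named genes are the 2 with the smallest p in each direction and a mean of at least 1 CPM, since the lists by symbol could not be used. The members, lists and tests were chosen with earlier results of these data known. Nothing says whether mice shared a litter or cage, so p-values measure the spread between these mice.

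A chi-square comparison of each of the 66 library pairs (genes with 20 reads or more) gave 30.7 or more per degree of freedom, so no library repeated another.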

Additional observations from a re-analysis of the deposited data

Results flagged for a closer look

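MGP_C57BL6NJ_G0031269 stood at 13.12 CPM in WT mouse 4, far from the other 5 WT mice on minimal magnesium at 2.91 to 6.65 CPM. It was the only one of 14 groups of 6 values checked (4 genes and 3 library measures in 2 genotypes) with a sample so far out, and chance gives about 1 in 20.

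The knockout effect differed between the diets at both genes that rose: by 3.651 on the log2 scale for MGP_C57BL6NJ_G0022218 (edgeR adjusted p = 0.000308) and by 2.443 for MGP_C57BL6NJ_G0031269 (adjusted p = 0.00374). Without mice 4 and 20 these were 4.03 and 3.04. Both genes were chosen by their effect on minimal magnesium, which is part of this difference, so positive values are favoured.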

How the results depend on the processing

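With all libraries, 138 genes were called for the genotype difference on minimal magnesium. The count was 4061 without mice 4 and 20, 799 with DESeq2, 5531 with limma-voom and library weights, 57 without a filter on low counts, 37 with a term for mouse numbers 1 to 18 against 20 to 40, 772 in mice 20 to 40 alone, 0 in the 12 libraries alone and 4330 in these without mice 4 and 20. Leaving out 1 mouse gave 5 to 2171. It gave 2171 without mouse 4, 1523 without 20, 5 without 1, 10, 36 or 40, 9 without 39, 11 without 23, 20 without 37 and 22 without 35. The share of calls that were higher was 84.8%, and 49% with limma-voom. Mice 1 to 18 hold 1 KO mouse on minimal magnesium and were not fitted alone. For the difference between diets, 1830 genes were called, with 2746 by DESeq2, 4252 by limma-voom, 1164 without a filter, 1057 with the term for mouse numbers and 1209 to 2348 on leaving out 1 mouse, the lowest without mouse 36. For transcript usage edgeR called 112 genes, 191 without mice 4 and 20, 3 among transcripts with at least 5% of the TPM, 6 in the 12 libraries and 108 to 162 on leaving out 1 mouse. Limma on shares called 1, and 0 with that share minimum (730 at an unadjusted p under 0.05). That minimum removed the transcript behind the limma call before testing (3.08% in WT and 0% in KO mice). It also removed most of those with the smallest p by edgeR, and the 12 libraries were filtered anew. The loss of such calls was thus set by the filter. Genes whose groups did not overlap numbered 99, and 2857 without mice 4 and 20. The cause of these changes was not tested, except that mice 4 and 20 were left out for their profiles. The limma fits with 2 changes and the last count were added after the data were seen. MGP_C57BL6NJ_G0022218 and MGP_C57BL6NJ_G0031269 passed in 21 of 22 alternatives, MGP_C57BL6NJ_G0029527 in 13 and MGP_C57BL6NJ_G0023562 in 11, all with the same direction. No paired analysis was possible because each mouse number occurs in 1 group. Depth limits genes such as MGP_C57BL6NJ_G0023562, with 2 to 22 reads per library.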
